A study of Heterocephalus glaber with 215 samples.

Results

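A group of 7 mitophagy genes was followed through 10 tissues of Heterocephalus glaber, the naked mole-rat, a rodent whose colonies hold few breeding animals among many workers. The 7 genes were PINK1, BNIP3, BNIP3L, FUNDC1, SQSTM1, MAP1LC3A and OPTN, taken by symbol from a table of read counts for 16339 genes, and all 7 were found. The animals were 24, with 6 female breeders (BF), 6 female non-breeders (NF), 6 male breeders (BM) and 6 male non-breeders (NM). Mean ages were 3.52 ± 0.18 years (SD, n = 6) in BF, 3.4 ± 0.6 in NF, 3.52 ± 0.57 in BM and 3.42 ± 0.56 in NM. Breeders had been taken out of their natal colony and paired with an unrelated partner, while non-breeders were litter siblings that stayed behind as workers. Reproductive status and removal from the colony therefore cannot be told apart. Males and females of the breeding groups were also killed at different times after the last litter, so sex and time of sampling cannot be told apart among breeders. The labels state neither an altered allele nor a drug for any group.

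Mitophagy is the removal of mitochondria by autophagy. PINK1 is a kinase that builds up on the surface of mitochondria that have lost their membrane potential, where it phosphorylates ubiquitin and recruits and activates the ubiquitin ligase Parkin, listed here under its older symbol PARK2. Ubiquitin-binding adaptors such as SQSTM1 (p62) and OPTN then tie the labelled mitochondrion to ATG8 proteins, among them LC3A, the product of MAP1LC3A, on the forming autophagosome. BNIP3, BNIP3L (NIX) and FUNDC1 sit in the outer mitochondrial membrane and bind ATG8 proteins directly, without ubiquitin. BNIP3 and BNIP3L are known targets of the hypoxia response, and FUNDC1 is known for mitophagy under hypoxia. Most control of PINK1 is by turnover of the protein, which RNA levels do not show.

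Levels are given in CPM, counts per megaread after scaling by the trimmed mean of M-values (TMM) over all libraries used, and groups are summarised by mean ± SD. CPM does not correct for transcript length, so levels are compared between tissues and groups and not between genes. Log2 fold changes are given ± SE from edgeR's quasi-likelihood test of one comparison, where p-values were adjusted by Benjamini-Hochberg over all genes tested. A gene counts as called at an adjusted p below 0.01. In a whole-tissue library, fewer cells of a type and less RNA per cell cannot be told apart.

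Library totals ran from 9553515 to 20099804 counts, with a median of 14309055. Of 215 libraries, the ovary of BF_1816 and the cerebellum of BM_5982 were left out, which leaves 5 BF ovaries and 4 BM cerebella. The study had set both aside. Several libraries stood apart. The summed level of 11 skeletal muscle markers (such as ACTA1 and CKM) ran from 40.1 to 46372 CPM over the 24 skin libraries. In thyroid, the muscle sum reached 79161 CPM in BM_1147 and 13727 CPM in NF_3605 and was at most 594 CPM in the other 22 libraries. Keratinocyte markers were present in every skin library, lowest in BM_1400 at 1658 CPM, and the next lowest was 5565 CPM. In the RefSeq gene table of the species, SQSTM1 overlaps MRNIP, MAP1LC3A overlaps PIGU and FUNDC1 overlaps a pseudogene. Reads carry no strand, and those of such partners cannot be told apart.

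PINK1 was highest in heart and kidney and lowest in the gonads and pituitary. Its mean was 980 ± 195 CPM in heart (SD, n = 24) and 798 ± 157 in kidney, against 269 ± 18 in hypothalamus, the next tissue. Thyroid (232 ± 155), adrenal (227 ± 23.1) and skin (226 ± 195) had close means, but the SD of skin and thyroid was several times that of adrenal. Cerebellum followed at 177 ± 17.9, ovary at 163 ± 19.9 (n = 11), pituitary at 139 ± 12.3 and testis at 132 ± 33.4 (n = 12). From testis to heart the mean differed 7.42-fold. Of the 9 steps between neighbouring tissues in this order, 6 were smaller on the log2 scale than the larger of both SDs, and the step from kidney to hypothalamus was not among them. Heart and kidney also differed by less than their spread, and kidney ranked above heart when CPM were computed from library totals or with TMM within each tissue. TMM factors within a tissue cancel in its mean of log2 CPM, so both of these scalings give the same tissue order and are a single check.

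Single libraries departed from their tissue's PINK1 level. The heart of NF_0525 had 319 CPM, while the other 23 hearts ran from 707 to 1294. In the same heart FUNDC1 was 5.19 CPM and OPTN 82.7 CPM, each the lowest of 24. Its cardiac marker sum of 24536 CPM lay within the range of the other hearts, 22177 to 42292. The kidneys of BF_4772 and NM_0713 had 341 and 456 CPM of PINK1 against 632 to 1061 in the other 22.

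**Figure D1:**
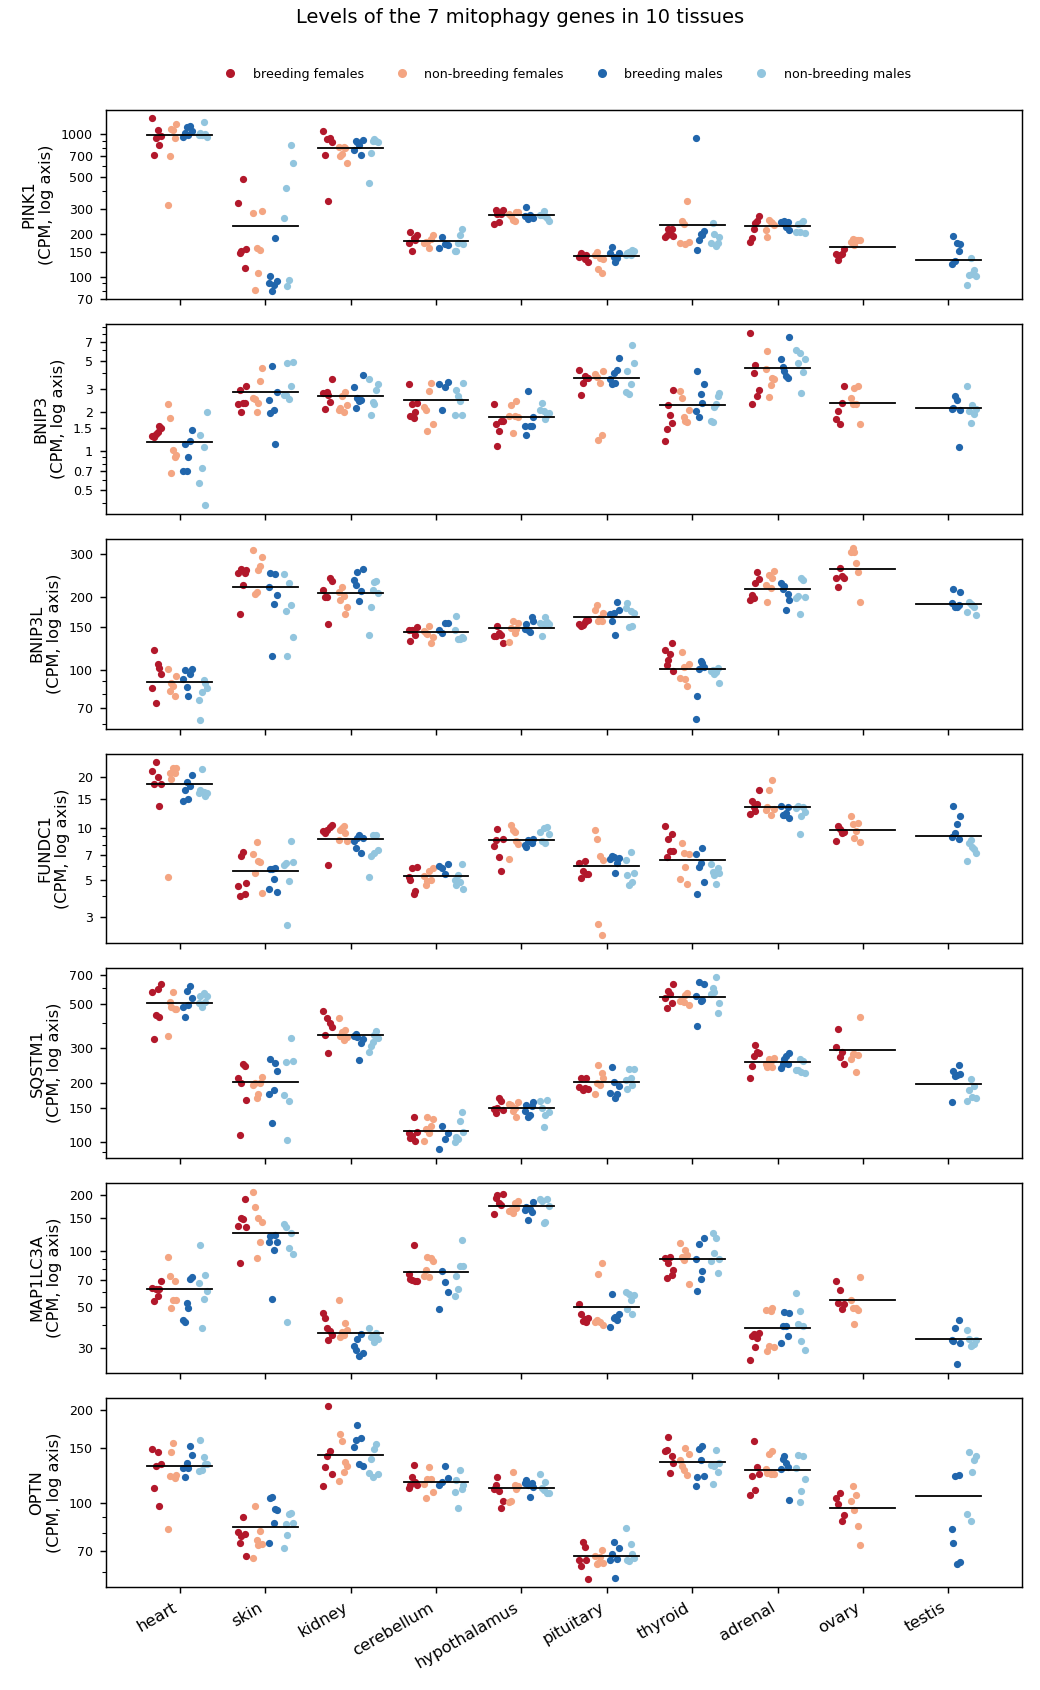
Level of each of the 7 genes in every library of 10 tissues, in CPM on a log axis. Points are libraries coloured by group and the bar is the mean of the tissue. PINK1 lies near 980 CPM in heart and 798 in kidney and below 300 CPM on average elsewhere, with the widest scatter in skin.

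The genes closest to PINK1 in pattern over all libraries used were NNT (Pearson r 0.94 of log2 CPM), MPC2 (0.93), APOO (0.92), NDUFA10 (0.92) and VDAC1 (0.92), out of 12437 genes ranked. NNT encodes the mitochondrial transhydrogenase, MPC2 a subunit of the mitochondrial pyruvate carrier, APOO a component of the cristae-organising MICOS complex, NDUFA10 a subunit of respiratory complex I and VDAC1 the main channel of the outer membrane. These correlations describe libraries that share animals and tissues, and mainly order tissues. Parkin (PARK2) also had its highest mean in heart, at 15.7 ± 3.04 CPM, followed by adrenal at 10.7 ± 2.09 and kidney at 10.2 ± 2.14. Its lowest mean was in skin, at 3.63 ± 4.20 CPM, where counts ran from 4 to 194.

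The receptors that bind ATG8 proteins directly did not share one tissue order. BNIP3L was highest in ovary, at 260 ± 39.5 CPM, and lowest in heart, at 89.7 ± 12.5, a 2.90-fold range. BNIP3 was also lowest in heart, at 1.18 ± 0.46 CPM, and highest in adrenal, at 4.4 ± 1.49. Its counts per library were only 3 to 128, and 8 of its 9 steps between neighbouring tissues lay within the spread. FUNDC1 ran the other way, with its highest mean in heart (18.2 ± 4.05 CPM) and its lowest in cerebellum (5.25 ± 0.63). Without TMM, or with TMM within each tissue, the range on the log2 scale from the highest to the lowest tissue was 2.57 in place of 1.54 for BNIP3L and 2.81 in place of 1.94 for BNIP3. The place of heart also depends on the scaling for FUNDC1, since adrenal was highest and skin lowest without TMM over all libraries. BNIP3L was most like CCDC117 (r 0.82) and ERLIN1 (0.78), BNIP3 like TEP1 (0.70) and MAT2A (0.69), and FUNDC1 like HSPA9 (0.86) and ACOT11 (0.85). HSPA9 encodes the mitochondrial chaperone mortalin.

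Among the adaptors, SQSTM1 had the wider range. Its mean was 544 ± 65.2 CPM in thyroid and 506 ± 76.4 in heart, 349 ± 46.1 in kidney, and 114 ± 13.2 in cerebellum, the lowest, for a 4.76-fold range. OPTN varied the least of the 7 genes, 2.10-fold, from 143 ± 21.5 CPM in kidney to 67.7 ± 5.68 in pituitary, and 7 of its 9 steps between neighbouring tissues lay within the spread. Without TMM over all libraries adrenal was the highest tissue for OPTN. MAP1LC3A was highest in hypothalamus, at 173 ± 16.6 CPM, followed by skin at 124 ± 37.7, thyroid at 90.2 ± 16.8 and cerebellum at 76.5 ± 15.4. It was lowest in testis, at 33.4 ± 4.47 CPM, 5.20-fold below hypothalamus, but the lowest tissue was kidney without TMM over all libraries. SQSTM1 was most like BSG (r 0.94) and RBPMS (0.94), MAP1LC3A like SEMA4A (0.81) and SIRT2 (0.80), and OPTN like ST6GALNAC6 (0.80) and LUZP1 (0.75).

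Within groups, PINK1 varied with SQSTM1 and FUNDC1. Over all libraries used, with each group's mean removed, r was 0.53 for PINK1 and SQSTM1, 0.48 for PINK1 and FUNDC1 and 0.56 for SQSTM1 and MAP1LC3A. For PINK1 and OPTN it was -0.02, although their means over the 10 tissues had an r of 0.64. These values are descriptions, and the libraries share animals and scaling.

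The first question was which of these genes differ with reproductive status within a sex. In testis, 3 of the 7 genes had higher means in BM than in NM at an unadjusted p below 0.05 (PINK1, FUNDC1 and SQSTM1) and OPTN had a lower mean, and none was called. None of the 14421 genes tested in testis was called either (0%), although 36.6% had an unadjusted p below 0.05. DESeq2 called 378 genes and limma-voom 0 in the same libraries. The study had singled out PINK1 in testis and skin of males on these same animals, so the values below are not independent evidence on it.

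PINK1 in testis was 123 CPM in BM_1147, 193 in BM_1215, 129 in BM_1400, 174 in BM_3274, 153 in BM_5982 and 169 in BM_6656. In NM it was 87.8 in NM_0713, 103 in NM_1449, 136 in NM_3295, 104 in NM_4925, 112 in NM_6074 and 102 in NM_6206. A single non-breeder, NM_3295, reached the range of the breeders, and the other 5 lay below all 6 of them. Group means were 157 ± 27.1 CPM in BM and 107 ± 16 in NM, a log2 fold change of 0.57 ± 0.13 (edgeR, adjusted p = 0.0681). With DESeq2 the adjusted p was 0.00751 at a log2 fold change of 0.56, which is past the threshold. With 1 animal left out in turn, the log2 fold change ran from 0.49 to 0.64 and edgeR called PINK1 in 0 of 12 fits. These fits called no other gene either, so that count says nothing particular about PINK1.

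FUNDC1, the hypoxia-related receptor, separated the groups. It ran from 8.68 to 13.6 CPM in BM (median 9.99) and from 6.39 to 8.52 in NM (median 7.65), with no overlap, as for 1.41% of all genes tested in that direction. Its log2 fold change was 0.48 ± 0.14 (edgeR, adjusted p = 0.0686). The adaptor SQSTM1 ran from 160 to 245 CPM in BM (median 220) and from 161 to 208 in NM (median 176), where BM_1147 was the lowest of all 12 testes. Its log2 fold change was 0.28 ± 0.11 (edgeR, adjusted p = 0.0948). The adaptor OPTN had the opposite sign at -0.44 ± 0.19 (edgeR, adjusted p = 0.116), with 63.5 to 124 CPM in BM (median 78.5) and 87.9 to 147 in NM (median 132). BM_1400 and BM_5982 lay among the non-breeders for OPTN.

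The other genes differed less than their spread in testis. BNIP3L was 194 ± 15.0 CPM in BM and 181 ± 8.66 in NM, with a log2 fold change of 0.12 ± 0.08 (edgeR, adjusted p = 0.252). MAP1LC3A was 33.9 ± 6.12 and 33.0 ± 2.44 CPM (0.06 ± 0.11, edgeR adjusted p = 0.711). BNIP3 was 2.10 ± 0.55 and 2.20 ± 0.53 CPM (-0.05 ± 0.23, edgeR adjusted p = 0.879).

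Markers of testicular cell types moved with status in the same libraries. The sum of 7 markers of Leydig and steroid-producing cells (such as STAR and CYP17A1), none of them at 0 in a group, ran from 27292 to 66404 CPM in BM and from 13618 to 28789 in NM. The sum of 8 spermatid markers ran from 124 to 726 CPM in BM and from 507 to 1206 in NM, and 7 spermatocyte markers from 101 to 471 and from 342 to 622. Over the 12 testes, which share library depth and scaling, r of log2 levels with the steroidogenic sum was 0.91 for PINK1 and 0.94 for FUNDC1, and 0.79 and 0.87 with group means removed. For OPTN, r with the spermatid sum was 0.95, and 0.93 with group means removed. Other marker sums moved with these genes too. BM_1215, BM_3274 and BM_6656, the testes highest in PINK1, also had the highest cardiac marker sums and the lowest spermatid sums. OPTN and the skeletal muscle sum were both lowest in BM_3274 and both highest in NM_1449. The r values given here therefore do not single out a cell type. With the steroidogenic sum as a covariate, the log2 fold change of PINK1 was 0.17 ± 0.13 (edgeR, adjusted p = 1). None of the 14421 genes tested was called with or without this covariate. The sum nearly separates BM from NM, so this fit cannot tell status from the sum.

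**Figure D2:**
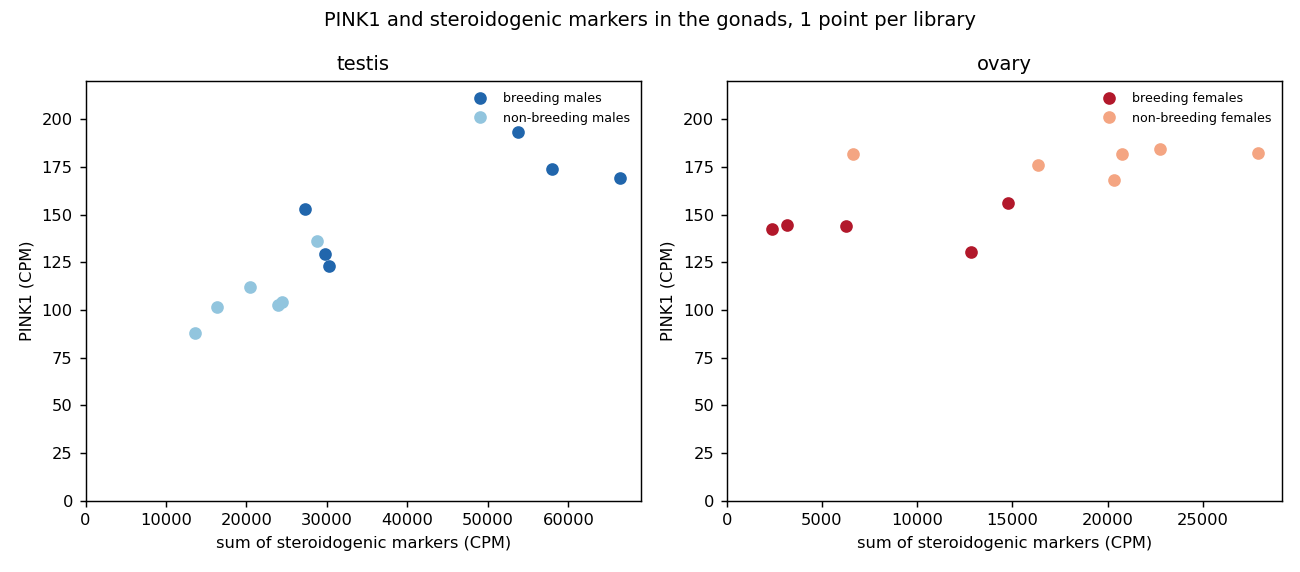
PINK1 level against the summed level of 7 steroidogenic markers, both in CPM, with 1 point per library, in testis (left) and ovary (right). In testis PINK1 is higher where the sum is higher in both groups, and BM reach 193 CPM. In ovary the BF points, 130 to 156 CPM, lie below the NF points, 168 to 184 CPM. The sums there are 2351 to 14765 CPM in BF and 6647 to 27900 in NF, so few points of the groups share a like sum.

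Other genes of the pathway in testis were read as values, since none was called. Of 22 genes of the PINK1-Parkin axis tested, 6 had an unadjusted p below 0.05 with higher means in BM and 0 with lower, a smaller share than the 36.6% of all genes tested, and the median log2 fold change was 0.10 beside 0.02 over all genes. VDAC1, a Parkin substrate, was 139 ± 32.1 CPM in BM and 89.4 ± 9.61 in NM (0.66 ± 0.15, edgeR adjusted p = 0.0681). MFN2, a fusion protein that is ubiquitinated by Parkin, had 0.39 ± 0.12 (adjusted p = 0.0686). The lists that follow are short and are read against the same 36.6%. Of 5 other adaptor genes, 2 had higher means at that p and 0 lower, with CALCOCO2 (NDP52) at 341 ± 22.3 against 272 ± 31.4 CPM, 0.35 ± 0.09 (adjusted p = 0.0681). Of 3 other ATG8 genes tested, 2 had higher means at that p, among them GABARAPL1 with 0.39 ± 0.12 (adjusted p = 0.0686). Of 5 genes listed with the receptors, 2 had higher means at that p, PHB2 (0.37 ± 0.12, adjusted p = 0.0756) and BCL2L13 (0.26 ± 0.09, adjusted p = 0.0828). Of 18 nuclear genes of mitochondrial content, such as CS (citrate synthase, 0.58 ± 0.14, adjusted p = 0.0681), 11 had higher means at that p and 0 lower, with a median of 0.31.

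In skin of males the sign of PINK1 differed from testis, as did the signs of FUNDC1, SQSTM1, MAP1LC3A and OPTN. The mean of PINK1 was lower in BM than in NM, the other 6 genes had adjusted p-values of 0.459 or more, and none was called by edgeR. None of the 13401 genes tested in male skin was called (0%), while 18.6% had an unadjusted p below 0.05. DESeq2 called 413 genes and limma-voom 0.

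PINK1 in skin was 90.4 CPM in BM_1147, 101 in BM_1215, 80.0 in BM_1400, 87.1 in BM_3274, 186 in BM_5982 and 93.3 in BM_6656. In NM it was 260 in NM_0713, 421 in NM_1449, 85.6 in NM_3295, 94.5 in NM_4925, 842 in NM_6074 and 632 in NM_6206. The non-breeders thus fell into 4 high libraries and 2 that lay among the breeders. Group means were 106 ± 39.9 CPM in BM and 389 ± 304 in NM, a log2 fold change of -1.94 ± 0.52 (edgeR, adjusted p = 0.0951). DESeq2 gave -1.96 with an adjusted p of 0.00449.

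The skeletal muscle marker sum was high in the male skins with high PINK1. In BM skin it was 59.0 CPM in BM_1147, 40.1 in BM_1215, 1043 in BM_1400, 50.4 in BM_3274, 5421 in BM_5982 and 63.5 in BM_6656. In NM it was 10935 in NM_0713, 19819 in NM_1449, 826 in NM_3295, 50.2 in NM_4925, 46372 in NM_6074 and 32611 in NM_6206. The 5 male skins with the highest muscle sums were those with the highest PINK1, in the same order. Among the other male skins no such order was seen, as BM_1400 had the highest sum of them and the lowest PINK1. Over all 24 skins, which share scaling, r of the log2 levels was 0.88, and 0.84 with group means removed. The 4 smooth muscle markers, which include DES, also expressed in skeletal muscle, gave an r of 0.93.

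Skins were also read with the muscle-rich libraries left out, at a limit set after the values were seen. Of the 24 skins, the 11 with a muscle sum at or below 2000 CPM had 80.0 to 146 CPM of PINK1, and the 13 above it had 151 to 842. The first held 5 BM, 2 NM, 2 BF and 2 NF. Among these males the log2 fold change of PINK1 was -0.0002 ± 0.18 (edgeR, adjusted p = 1), with 5 BM against 2 NM. The limit removed the 4 NM and the 1 BM with the highest PINK1 and kept the 2 NM that lay among the breeders, so this value follows from the choice of libraries and its test says nothing more. With the muscle sum as a covariate in all 12 males the log2 fold change of PINK1 was -0.35 ± 0.45 (edgeR, adjusted p = 0.939). The sum was above the limit in 4 NM and 1 BM, so this fit cannot fully tell status from the sum.

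**Figure D3:**
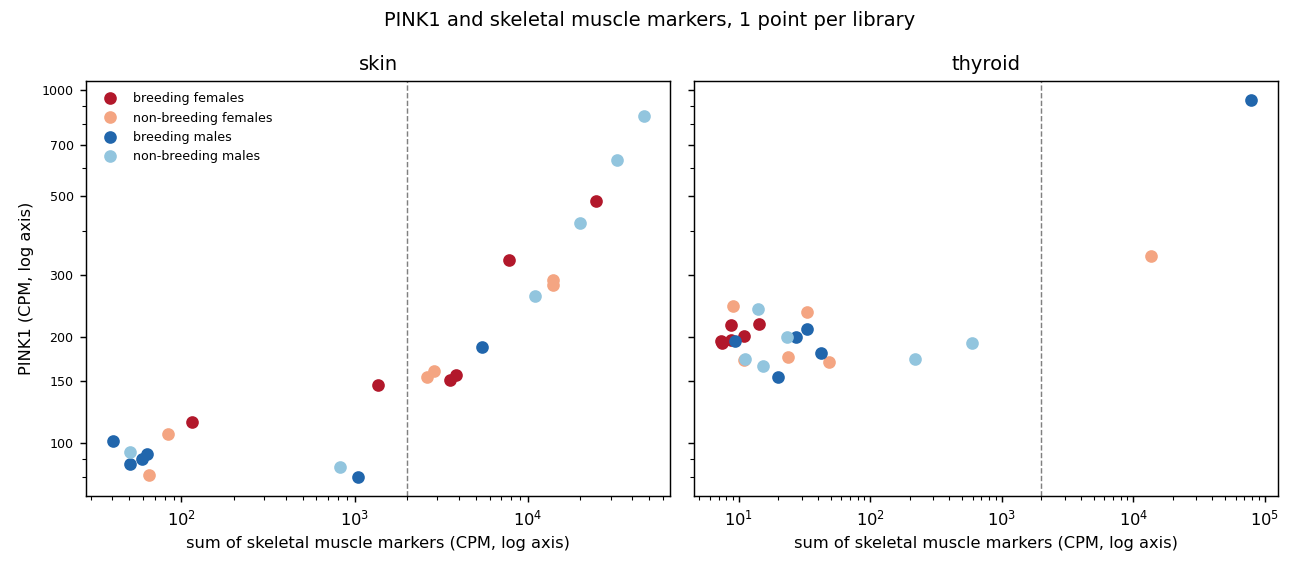
PINK1 level against the summed level of 11 skeletal muscle markers in skin (left) and thyroid (right), in CPM on log axes, with 1 point per library coloured by group and a dashed line at 2000 CPM. Right of the line PINK1 is 151 to 842 CPM in 13 skins and 339 and 938 CPM in 2 thyroids. Left of it PINK1 is 80.0 to 146 CPM in 11 skins and 154 to 245 CPM in 22 thyroids.

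The other genes were close between BM and NM in skin. BNIP3 was 2.51 ± 1.15 against 3.46 ± 1.09 CPM, a log2 fold change of -0.51 ± 0.32 (edgeR, adjusted p = 0.459). BNIP3L was 205 ± 50.6 against 182 ± 51.5 CPM (0.13 ± 0.22), and FUNDC1 5.17 ± 0.73 against 5.78 ± 1.90 (-0.20 ± 0.24). SQSTM1 was 205 ± 52.9 against 215 ± 83.6 CPM (-0.12 ± 0.27), MAP1LC3A 103 ± 24.8 against 106 ± 36.2 (-0.09 ± 0.26) and OPTN 93.5 ± 11.5 against 84.7 ± 8.21 (0.10 ± 0.13). Each of these sits within the spread of the libraries. BNIP3L and MAP1LC3A varied with the keratinocyte sum instead, with r of 0.81 and 0.75 over the 24 skins, and BM_1400, low in keratinocyte markers, had 54.8 CPM of MAP1LC3A against 101 to 122 in the other BM.

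Of the 22 PINK1-Parkin axis genes, 7 had an unadjusted p below 0.05 with lower means in BM skin and 0 with higher, where 18.6% of all genes reached that p in either direction, and the median log2 fold change was -0.22 beside 0.00 over all genes. PARK2 was 1.22 ± 0.69 CPM in BM and 7.43 ± 5.98 in NM (-2.66 ± 0.72, edgeR adjusted p = 0.0951), and MFN2 was 105 ± 11.8 against 236 ± 145 (-1.22 ± 0.36, adjusted p = 0.102). OMA1, a protease of the inner membrane that can degrade PINK1, was 24.2 ± 1.88 against 35.6 ± 4.22 CPM (-0.59 ± 0.12, adjusted p = 0.0951). All 18 mitochondrial content genes had lower means in BM, 15 of them at that p, with a median of -1.16. NDUFS1, a complex I subunit, was 50.5 ± 13.5 against 180 ± 136 CPM. The muscle sum moved with these lists as well, and its part in them was not tested. None of 5 other adaptors and of 3 other ATG8 genes tested reached that p.

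In skin of females none of the 7 genes was called by edgeR, limma-voom or DESeq2. PINK1 was 330 CPM in BF_1090, 146 in BF_1816, 151 in BF_4121, 485 in BF_4772, 115 in BF_6382 and 155 in BF_6841. In NF it was 280 in NF_0525, 80.9 in NF_2411, 160 in NF_2969, 106 in NF_3439, 154 in NF_3605 and 289 in NF_4060. Both groups had high and low libraries and overlapped over most of their range. Means were 230 ± 146 and 179 ± 87.6 CPM (0.39 ± 0.41, edgeR adjusted p = 0.849), and with 1 animal left out in turn the log2 fold change ran from 0.02 to 0.59. It was 0.02 without BF_4772, the skin with the highest muscle sum among females, 24757 CPM. The other 6 genes had log2 fold changes of -0.23 to 0.05, with adjusted p-values of 0.833 or more. None of 13373 genes was called by edgeR (0%), and DESeq2 called 3. An unadjusted p below 0.05 was found for 6.35%.

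In ovary PINK1 was lower in breeders, and its groups did not overlap. It was 145 CPM in BF_1090, 130 in BF_4121, 142 in BF_4772, 144 in BF_6382 and 156 in BF_6841. In NF it was 176 in NF_0525, 184 in NF_2411, 168 in NF_2969, 182 in NF_3439, 182 in NF_3605 and 182 in NF_4060. All 5 BF lay below all 6 NF, which held for 1.14% of the genes tested in that direction. Means were 143 ± 9.17 CPM (n = 5) and 179 ± 5.95 (n = 6), a log2 fold change of -0.31 ± 0.07 (edgeR, adjusted p = 0.0458). This is past 0.05 and not past the 0.01 used for calls, which 0.445% of genes passed in ovary (61 of 13717), while 15.9% had an unadjusted p below 0.05. DESeq2 gave -0.31 with an adjusted p of 0.000174, and called 507 genes in all.

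The other 6 genes did not differ beyond their spread in ovary. BNIP3L, which binds ATG8 proteins directly, was 242 ± 15.5 CPM in BF and 276 ± 48.1 in NF (-0.17 ± 0.12, edgeR adjusted p = 0.53), where NF ran from 191 to 320 CPM around the 221 to 264 of BF. SQSTM1 was 296 ± 47.9 and 292 ± 70.9 CPM (adjusted p = 0.959), with NF_4060 at 431 CPM above the other NF at 226 to 280. MAP1LC3A was 56.5 ± 8.24 and 52.3 ± 10.8 CPM (adjusted p = 0.739). OPTN was 98.2 ± 8.31 and 95.7 ± 14.8 (adjusted p = 0.864), FUNDC1 9.52 ± 0.73 and 10 ± 1.32 (adjusted p = 0.852), and BNIP3 2.20 ± 0.63 and 2.51 ± 0.58 (adjusted p = 0.772).

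Ovarian cell markers also differed by status. The sum of 8 granulosa cell markers (such as FOXL2 and CYP19A1) ran from 2537 to 5241 CPM in BF and from 562 to 1055 in NF, and the steroidogenic sum from 2351 to 14765 and from 6647 to 27900. With the granulosa sum as a covariate the log2 fold change of PINK1 was -0.23 ± 0.28 (edgeR, adjusted p = 0.964), and with the steroidogenic sum -0.31 ± 0.10 (adjusted p = 0.463). Of 13717 genes tested, these fits called 0 and 3, against 61 with no covariate. The granulosa sum separates BF from NF completely, so its fit cannot tell status from the sum. Over the 11 ovaries the r of this sum with PINK1 was -0.90, and -0.06 with group means removed. With 1 animal left out in turn, the log2 fold change of PINK1 ran from -0.33 to -0.27 and edgeR called PINK1 in 0 of 11 fits. Over all genes, these fits called from 17 of 13686 (without NF_2411) to 115 of 13748 (without BF_6841).

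No pathway gene was called in ovary. Of 22 PINK1-Parkin axis genes, 1 had an unadjusted p below 0.05, a smaller share than the 15.9% of all genes tested. It was TOMM22, a receptor of the outer membrane import pore, at 98.9 ± 4.93 against 84.4 ± 8.81 CPM (0.24 ± 0.09, edgeR adjusted p = 0.183). The next lists are short and are read against the same 15.9%. Of 5 other adaptors 1 reached that p, NBR1, at 138 ± 13.1 CPM in BF and 188 ± 26.1 in NF (-0.43 ± 0.11, adjusted p = 0.057). Of 3 other ATG8 genes tested 1 did, GABARAPL2, at 131 ± 7.23 and 156 ± 11.8 CPM (-0.24 ± 0.08, adjusted p = 0.148). Of 5 genes listed with the receptors 1 did, BCL2L1, though not itself a receptor, with -0.28 ± 0.10 (adjusted p = 0.164). Of 18 mitochondrial content genes the median log2 fold change was -0.06 beside -0.02 over all genes, and CYCS (cytochrome c) had 0.49 ± 0.19.

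**Figure D4:**
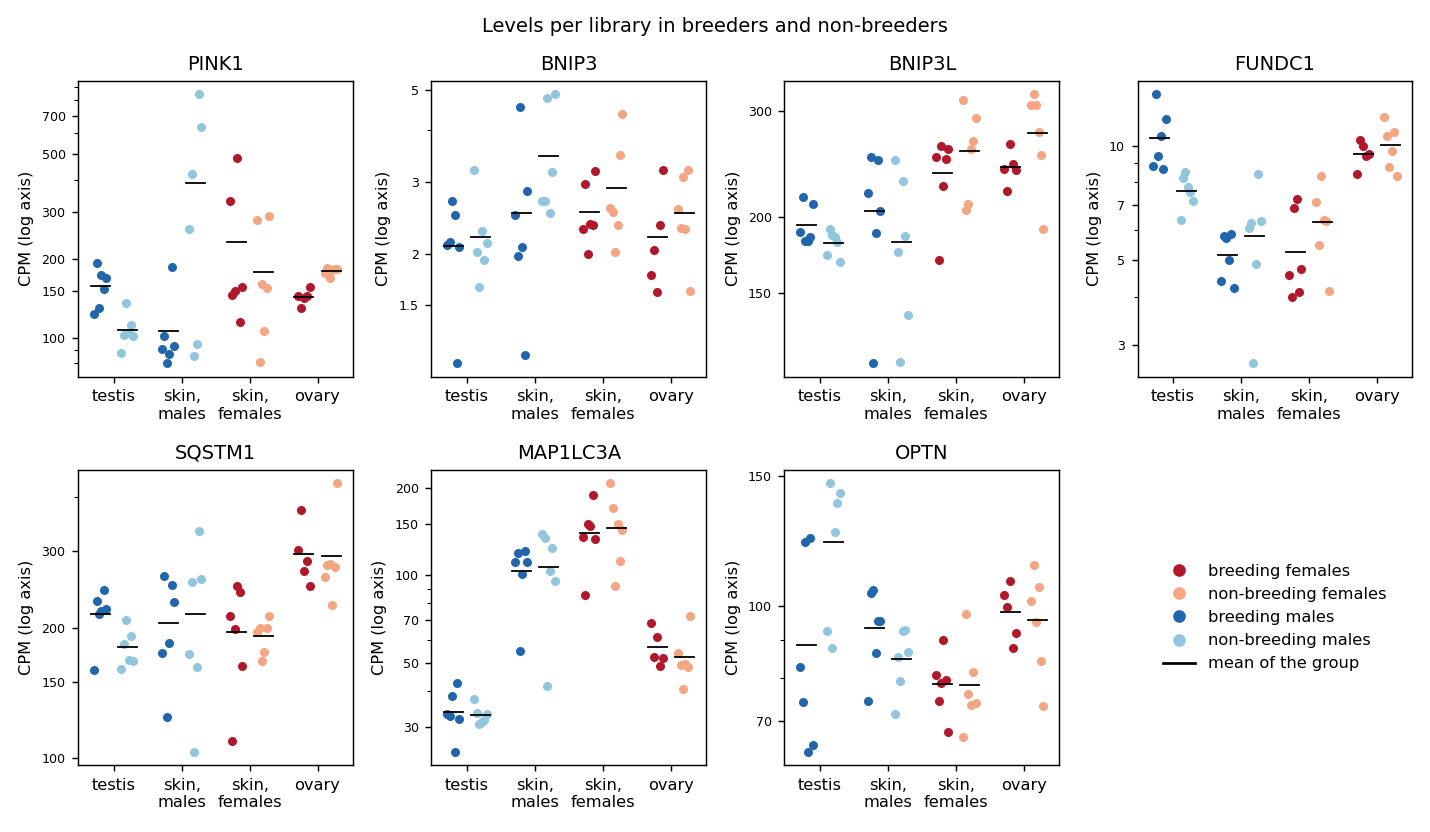
Level of each of the 7 genes per library in breeders and non-breeders of testis, skin of males, skin of females and ovary, in CPM on log axes. Points are libraries and the bars are group means. PINK1 is the gene whose groups stand apart most in ovary, where 130 to 156 CPM in BF lies below 168 to 184 in NF. In male skin 4 NM libraries lie at 260 to 842 CPM above all BM.

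The status effects of the gonads were then set against each other in one fit of testis and ovary. For PINK1 the effect in testis exceeded that in ovary by 0.84 ± 0.15 on the log2 scale (edgeR, adjusted p = 0.00458), so this difference was called. It is the sum of a higher mean in BM than NM and a lower mean in BF than NF. Of 14911 genes, 0.617% were called in this test, 48 with a positive and 44 with a negative difference. The call was kept by limma-voom (adjusted p = 0.00548) and in 20 of 23 fits with 1 animal left out, where the difference ran from 0.77 to 0.92. It was lost without BF_4772 (adjusted p = 0.0118), without BM_6656 (0.0103) and without NM_6206 (0.0104). With the left-out ovary of BF_1816 kept, the difference was 0.98 with an adjusted p of 0.0147. No other gene of the 7 was called in this test, and the next were FUNDC1 with 0.51 ± 0.18 (adjusted p = 0.0879) and OPTN with -0.53 ± 0.24 (adjusted p = 0.182). The steroidogenic sum also moved with status in opposite directions in these gonads, and its part in this difference was not tested.

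Testis and skin came from the same males, and their status effects were first compared in one fit that did not use this pairing. For PINK1 the effect in testis exceeded that in skin by 2.41 ± 0.54 on the log2 scale (edgeR, adjusted p = 0.0254), which is not past 0.01. With the animal as a block the difference was 2.05 ± 0.57 (edgeR, adjusted p = 0.121). Without the block, the difference passed the threshold in 2 of 12 fits with 1 animal left out, and the adjusted p ran from 0.00509 to 0.0971. These 2 were the fits without NM_3295 and without NM_4925, the 2 non-breeders low in muscle markers. Those fits called 299 of 15044 and 61 of 15037 genes, and the other 10 called 0 or 1. With the same muscle-rich skins left out the difference was 0.58 ± 0.21 (edgeR, adjusted p = 0.363). None of the 15006 genes tested was called in this comparison (0%), while 22% had an unadjusted p below 0.05, and limma-voom called 0. FUNDC1 had 0.62 ± 0.28 (adjusted p = 0.195) and OPTN -0.61 ± 0.24 (adjusted p = 0.143).

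Sexes were compared in the same way within skin. The status effect on PINK1 in females exceeded that in males by 2.38 ± 0.71 on the log2 scale (edgeR, adjusted p = 0.144), and by 0.59 with the muscle sum as a covariate (adjusted p = 0.724). The fit with this covariate cannot fully tell status from the muscle sum in males. Ovary and skin of females differed in status effect by -0.70 ± 0.45 (adjusted p = 0.669), and by -0.73 ± 0.44 with the animal as a block (adjusted p = 0.725). None of the 7 genes was called in either test, where edgeR called 0 of 13727 genes (0%) for the sexes in skin and 0.11% for ovary and skin.

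**Figure D5:**
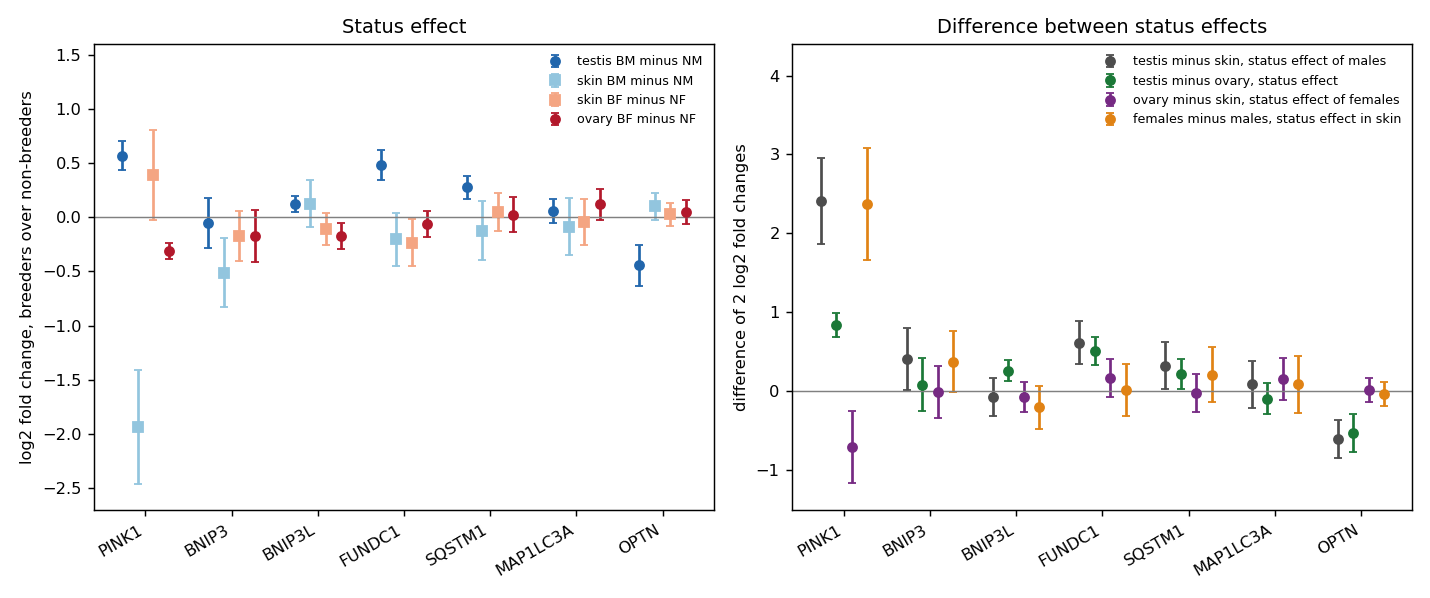
Left, log2 fold change of breeders over non-breeders for each of the 7 genes in testis, skin of males, skin of females and ovary. Right, differences between such status effects. Points are estimates and bars are ± SE. For PINK1 the testis minus ovary difference, 0.84, is the one that passed the threshold, and the 2 differences above 2 involve male skin.

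Over all tissues, 34 comparisons between 2 groups were made, 18 by status and 16 by sex, and they share animals and groups. Of 236 tests of the 7 genes, 0 were called by edgeR, while 0.0845% of all gene tests were. At an unadjusted p below 0.05 there were 20 (8.47%), against 10.9% of all gene tests. BNIP3 was not tested in heart for BM against NM and for NF against NM, because its counts fell below the filter. DESeq2 was run on the 4 status comparisons of gonads and skin, where it called PINK1 in testis, male skin and ovary and no other gene of the 7. Of 16339 genes it called 378 in testis, 413 in male skin, 507 in ovary and 3 in female skin.

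Outside gonads and skin, PINK1 hardly differed by status. Its log2 fold changes lay between -0.13 and 0.14 in 13 of the 14 other status comparisons. The exception was thyroid of males, where the mean was 313 ± 307 CPM in BM and 190 ± 27.2 in NM, a log2 fold change of 0.79 (edgeR, adjusted p = 0.999). There BM_1147 had 938 CPM and the other 5 BM 154 to 210, and without this library, the richest in muscle markers, the log2 fold change was -0.01 ± 0.11. In heart PINK1 was 970 ± 199 CPM in BF and 881 ± 319 in NF, 1045 ± 73.7 in BM and 1026 ± 94.7 in NM. In kidney the 4 group means lay between 748 and 835 CPM, and in hypothalamus between 267 and 271. The sign of PINK1 was positive in 12 of 18 status comparisons.

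The remaining genes had few differences elsewhere. In thyroid of females FUNDC1 was 8.31 ± 1.37 CPM in BF and 6.34 ± 1.36 in NF (0.40 ± 0.16, edgeR adjusted p = 0.121). In that comparison 30.2% of all genes had an unadjusted p below 0.05, as FUNDC1 did, and 1.57% were called. Without NF_3605 the log2 fold change of FUNDC1 was 0.33 ± 0.16 (adjusted p = 0.216). MAP1LC3A was lower in BM than NM of kidney, 30.7 ± 3.29 against 34.9 ± 2.19 CPM (-0.19 ± 0.08, adjusted p = 0.8), as one of 2 status comparisons in which its unadjusted p was below 0.05. In that kidney comparison 6.05% of all genes reached that p. BNIP3 and BNIP3L reached that p in no status comparison, SQSTM1 and OPTN only in testis.

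Pituitaries of NF_2969 and NF_3605 stood apart from the other 22 in these genes. FUNDC1 was 2.74 and 2.37 CPM there against 4.67 to 9.78, BNIP3 1.23 and 1.34 against 2.71 to 6.57, and PINK1 113 and 107 against 127 to 162. MAP1LC3A was higher, at 74.9 and 85.5 CPM against 38.9 to 60.3. The sum of 7 pituitary hormone markers was 406732 and 475188 CPM against 98759 to 312197 in the others. Without both, the log2 fold change of BF over NF was -0.47 ± 0.14 for FUNDC1 (edgeR, adjusted p = 0.153) and -0.02 ± 0.05 for PINK1 (adjusted p = 0.871).

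Females and males were also compared within a status. None of the 7 genes was called in 16 comparisons, where 0.0558% of all gene tests were. PINK1 in skin of breeders was 230 ± 146 CPM in BF against 106 ± 39.9 in BM (1.13 ± 0.36, edgeR adjusted p = 0.169), and the muscle sum there was 115 to 24757 CPM in BF and 40.1 to 5421 in BM. MAP1LC3A differed in several tissues of breeders at an unadjusted p below 0.05, without one direction. It was higher in BF than BM in kidney (38.9 ± 4.99 against 30.7 ± 3.29 CPM, adjusted p = 0.205), skin (140 ± 33.4 against 103 ± 24.8, adjusted p = 0.265) and hypothalamus (184 ± 16.4 against 166 ± 11.9, adjusted p = 0.513). In adrenal it was lower, 32.8 ± 4.06 against 39.8 ± 5.96 CPM (adjusted p = 0.145). Of all genes, 15.9% reached that unadjusted p in kidney of breeders, 17.6% in skin, 9.55% in hypothalamus, 21.5% in adrenal and 31.6% in thyroid. In kidney of non-breeders 6% did. FUNDC1 in thyroid was 8.31 ± 1.37 in BF against 5.97 ± 1.34 in BM (0.46 ± 0.18, adjusted p = 0.104), and in kidney of non-breeders 9.44 ± 0.78 in NF against 7.50 ± 1.48 in NM (adjusted p = 0.83).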

How the data were processed

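RNA-seq libraries of polyA RNA were made by the authors with a kit that does not mark strand and read as single ends. Per the labels, reads were aligned with STAR 2.4.1d and counted with HTSeq. Reads mapping to several loci were discarded. The authors deposited whole-number counts per gene symbol, not normalized, for 215 libraries. Fold changes of the study were not used, and every per-sample column used carried a label. The members, the gene lists and the alternatives were chosen with earlier results of these data known.

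With edgeR 4.0.16 in R 4.3.3, the groups of each comparison were filtered by filterByExpr, scaled by TMM and, after robust estimation of dispersions, compared with its quasi-likelihood F-test. Differences between status effects were contrasts of 4 groups. Levels are CPM with TMM over all libraries used. Alternatives were DESeq2 1.42.0, limma-voom (limma 3.58.1), RLE size factors, no low-count filter, non-robust dispersions, joint fits, other scalings and leaving out each animal. Marker sums as covariates, the 2000 CPM muscle limit, thyroid without BM_1147, and limma-voom and left-out animals for testis against ovary were chosen after seeing the data. The code was tested on simulated data.

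Tissues of one animal share its number, so testis and skin, and ovary and skin, are paired by animal. Deviations of an animal from its group mean correlated between testis and skin at -0.135 to 0.214. The 7 members are named throughout. Of each pathway list, up to 3 genes with the smallest p are eligible for naming, since none was called in the 4 status comparisons of gonads and skin. A gene that the rule made eligible is not reported here. The 5 genes most like PINK1 and the 2 most like each other member were taken among genes averaging 5 CPM or more, by Pearson r of log2(CPM + 1). P-values of comparisons within one tissue measure the spread between animals. In fits of a gonad with skin and no block, tissues of one animal counted as separate libraries.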

Additional observations from a re-analysis of the deposited data

Results flagged for a closer look

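Within each group of 4 to 6 libraries, the highest or lowest library was compared with the rest of its group by Dixon's ratio. Of 252 groups tested, 21 held a library that stood apart, and chance gives about 1 in 20. Values are CPM, and no cause was tested.

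PINK1 stood apart in skin of BM_5982, at 186 against 80.0 to 101 in the other BM, where the muscle marker sum was 5421. It stood apart in thyroid of BM_1147, at 938 against 154 to 210, with a muscle sum of 79161. In heart of NM_4925 it was 1220 against 960 to 1020, and in hypothalamus of BM_1215 it was 306 against 255 to 270.

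Of the receptors, FUNDC1 was 5.19 in heart of NF_0525 against 19.4 to 22.8, 22.5 in heart of NM_3295 against 15.6 to 16.8, and 6.12 in kidney of BF_4772 against 9.36 to 10.5. BNIP3 was 2.93 in hypothalamus of BM_1400 against 1.33 to 1.85, and 3.3 in cerebellum of BF_1090 against 1.82 to 2.35, both from low counts. BNIP3L was 167 in cerebellum of NM_1449 against 135 to 146, and 88.3 in thyroid of NM_6206 against 96.7 to 102.

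Of the adaptors, SQSTM1 was 160 in testis of BM_1147 against 216 to 245, 135 in cerebellum of BF_4772 against 101 to 113, 259 in kidney of BM_3274 against 318 to 352, and 431 in ovary of NF_4060 against 226 to 280. OPTN was 102 in adrenal of BM_6656 against 129 to 142, and 205 in kidney of BF_4772 against 114 to 147.

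MAP1LC3A, which encodes the ATG8 protein LC3A, was 54.8 in skin of BM_1400 against 101 to 122, the skin with the fewest keratinocyte markers. It was 58.6 in pituitary of BM_1215 against 38.9 to 45.6, 107 in cerebellum of BF_4772 against 68.4 to 74.8, and 54.3 in kidney of NF_0525 against 34.6 to 41.1. BF_4772 thus stood apart in 4 of these values, for FUNDC1 and OPTN in kidney and for SQSTM1 and MAP1LC3A in cerebellum.

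The status effect on PINK1 differed between testis and ovary, by 0.84 on the log2 scale, in the joint fit described above.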

How the results depend on the processing

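Directions and calls of the 7 genes were mostly kept. Of 189 counts and ranges recomputed, 171 stayed, and of 854 values of single genes, 796 did. DESeq2 called 1 of the 7 genes, PINK1, in testis, male skin and ovary, where edgeR called 0, and an adjusted p below 0.05 called 1 in ovary. Of 16339 genes, DESeq2 called 378 in testis, 413 in male skin and 507 in ovary. The cause of the gap between both tools was not tested. With the ovary of BF_1816 kept, 0 genes were called for testis against ovary in place of 1. Leaving out 1 animal gave 0 to 1 calls both there and for testis against skin. In the pairing by animal, the replicate block gave 2.05 for PINK1 in testis minus skin and -0.73 in ovary minus skin, and changed no call. Without TMM over all libraries, by either other scaling, the log2 range over tissues was 2.38 for PINK1 in place of 2.89, 2.81 for BNIP3, 2.57 for BNIP3L and 1.83 for SQSTM1.

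Signs turned in values that were near 0 or not called. With the steroidogenic sum as a covariate in testis, BNIP3 was 0.00075 and BNIP3L -0.030. In male skin, with the muscle sum as a covariate or without muscle-rich skins, FUNDC1 was 0.17 or 0.41, MAP1LC3A 0.067 or 0.45 and SQSTM1 0.27 or 0.55. In female skin without them, BNIP3 was 0.12, OPTN -0.15 and SQSTM1 -0.10, and limma-voom gave SQSTM1 -0.0040. In ovary, the granulosa or steroidogenic covariate gave 0.73 or 0.14 for BNIP3 and -0.24 or -0.016 for MAP1LC3A, and -0.079 for OPTN with the second. With BF_1816 OPTN was -0.024, SQSTM1 -0.061 and, for testis against ovary, BNIP3 -0.067. For testis against skin without muscle-rich skins MAP1LC3A was -0.38 and SQSTM1 -0.26. For the sexes in skin FUNDC1 was -0.12 by limma-voom, and -0.38 with the muscle covariate, where SQSTM1 was -0.10.

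With 1 animal left out, log2 values that changed sign ran from -0.13 to 0.091 for BNIP3 and -0.0097 to 0.12 for MAP1LC3A in testis. They ran from -0.020 to 0.24 for BNIP3L, -0.30 to 0.034 for MAP1LC3A and -0.32 to 0.048 for SQSTM1 in male skin. In female skin they ran from -0.15 to 0.081 for MAP1LC3A, -0.023 to 0.094 for OPTN and -0.039 to 0.17 for SQSTM1, and in ovary from -0.010 to 0.097 for OPTN and -0.063 to 0.18 for SQSTM1. For testis against skin they ran from -0.20 to 0.047 for BNIP3L and -0.084 to 0.24 for MAP1LC3A, and for testis against ovary from -0.0083 to 0.27 for BNIP3. BNIP3, with 3 to 128 counts per library, is the gene that depth limits most.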

Other observations

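Genes next to mitophagy were read in the 4 status comparisons of gonads and skin, as values, since edgeR called none of them there. For testis against ovary, edgeR called 1 of 16 hypoxia response genes, with a positive difference, where 0.617% of all genes were called. In testis, lysosomal genes had higher means in BM, with 8 of 13 tested at an unadjusted p below 0.05 and 1 lower, where 36.6% of all genes reached that p. CTSD, a lysosomal protease, was 2234 ± 624 CPM in BM and 1108 ± 332 in NM (1.04 ± 0.23, edgeR adjusted p = 0.0681), and CTSB, another, 196 ± 59.4 and 116 ± 20.4 (0.78 ± 0.20, adjusted p = 0.0681). SNAP29, which helps autophagosomes fuse with lysosomes, was the lower one, at 39.9 ± 5.16 against 51.6 ± 5.16. Of 9 genes of the NRF2 response, which SQSTM1 is known to promote, 4 had higher means at that p and 0 lower, among them HMOX1 (0.50 ± 0.12), NQO1 (0.80 ± 0.21) and GCLC (0.60 ± 0.16), each with an adjusted p of 0.0681. All 16 hypoxia response genes had higher means in BM, 4 of them at that p, with a median log2 fold change of 0.22 beside 0.02 over all genes.

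Of 26 core autophagy genes, 6 had higher and 3 lower means in BM testis at that p, a share near that of all genes, such as ATG2A (0.38 ± 0.12) and RB1CC1 (-0.50 ± 0.17). In male skin, where 18.6% of all genes reached that p, 1 was higher and 1 lower, and none of 13 lysosomal and 9 NRF2 genes reached that p. Of 16 hypoxia genes there, 5 had lower means in BM, such as LDHA (-1.49 ± 0.43), and 1 a higher mean, NDRG1 (0.58 ± 0.14, adjusted p = 0.0951). In female skin, where 6.35% of all genes reached that p, 2 of 13 lysosomal, 3 of 16 hypoxia and 2 of 9 NRF2 genes had lower means in BF at that p and 0 were higher, among them CTSB (-0.62 ± 0.25) and SRXN1 (-0.82 ± 0.28). In ovary, where 15.9% of all genes reached that p, GCLC, a subunit of the enzyme that starts glutathione synthesis, had the smallest p of these genes, at 127 ± 10.7 CPM in BF and 86.0 ± 10.7 in NF (0.57 ± 0.10, adjusted p = 0.0116). EPAS1, which encodes a hypoxia-inducible factor, was 125 ± 14.5 in BF and 194 ± 33.8 in NF (-0.62 ± 0.13, adjusted p = 0.0309).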
